A study of Mus musculus with 2 samples.

Results

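Kinesins and the genes of the centromere, kinetochore and spindle were compared between 1 kidney tumour and 1 normal kidney of the mouse by total RNA-seq. The 79 genes were taken by symbol, without regard to their values, from the 30744 symbols of the deposited count table: kinesins named Kif or Kifc with a number, centromere proteins named Cenp, the Bub1, Bub1b, Bub3, Mad2l1 and Ttk checkpoint genes, the Ndc80 complex, the Aurora and Polo-like kinases and Tpx2. The tumour came from a doxycycline-treated animal of the genotype Tet-OSKM/mPer2-luc, in which the drug turns on the transgenes for the reprogramming factors Oct4, Sox2, Klf4 and c-Myc, and which also carries luciferase as a Per2 reporter. The normal kidney is labelled WT and received no doxycycline. Both have the background C57BL/6 x DBA/2 F1, and the protocol given with both describes chimeras made by injecting embryonic stem cells with Rosa26-M2rtTA, TetO-OSKM and mPer2-luc into hybrid blastocysts, in which host cells remain. The age and sex of the animals, and the share of cells that came from the injected cells, are not stated in the labels used here.

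The tumour library held 20836819 reads over exons and the normal library 29258428. With 1 library per group there is no replicate check, so each difference below is between these 2 libraries, and every interval is a 95% interval for counting error only. Of 10 nephron genes taken as markers of the labelled tissue, 9 were lower in the tumour library, with a summed level of 60.0 RPKM (reads scaled by transcript length and library total, as the authors deposited them) in the tumour and 3261 RPKM in the normal library. In tissue RNA, fewer cells of a type and less RNA per cell cannot be told apart.

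Kinesins are motor proteins that use ATP to move along microtubules or to take their ends apart. Some carry vesicles, organelles and ciliary cargo in interphase cells, and others act in mitosis, where they build the bipolar spindle, move chromosomes and shape the midzone before cytokinesis. The kinetochore is the protein layer that links chromosomes to the spindle: a constitutive network sits on centromeric chromatin marked by CENP-A, the Ndc80 complex binds microtubules, and the checkpoint kinases hold anaphase back until every chromosome is attached. Most genes of this mitotic set are transcribed in dividing cells from late S phase to mitosis, and the tubules of the adult kidney divide little.

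Genes of mitosis were higher in the tumour library almost throughout. A gene was called higher or lower when its counts, after TMM scaling, differed by 2-fold or more between the libraries and the counting interval of their ratio left out 1. Of the 79 genes 55 were higher, 8 lower and 13 neither, and 3 had fewer than 20 reads over both libraries and were not called. Among all 16326 symbols with at least 20 reads, 31.2% were higher and 28.0% lower. The 27 measured kinesins outside the mitotic list held 11 higher and 7 lower, so finding both directions among them sets them apart from the table in no way. The median log2 ratio was 3.53 over the 77 genes with a ratio, against 0.08 over all measured symbols. For plain CPM, the scaling with the most higher calls, 67.6% of all calls in the table were higher against 52.8% with TMM, the median of all symbols was 0.64, and 59 of the 79 genes were higher and 7 lower.

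The 47 genes of 5 mitotic role groups (mitotic kinesins, centromere, outer kinetochore, checkpoint, and mitotic kinases with Tpx2) held 43 higher and 1 lower, and their summed level was 953 RPKM in the tumour and 119 RPKM in the normal library. Cenpb, the 1 lower gene, made 61.2 RPKM of the normal sum. The median level of the 47 was 18.5 RPKM in the tumour and 0.338 RPKM in the normal library. Of these 47 genes 15 had fewer than 20 reads in the normal library and so passed the read minimum through the tumour library, which by itself makes them likely to be called. The other 32 genes held 12 higher, 7 lower, 10 neither and 3 under the minimum, with 191 RPKM in the tumour and 218 RPKM in the normal library. At least 50-fold higher were 21 of the 47 and 1 of the 32, against 3.45% of all measured symbols, and at least 100-fold higher were 12 and 1, against 1.84%. Beside these genes, 7 of 7 markers of pluripotent cells were higher, with summed levels of 664 RPKM in the tumour and 3.78 RPKM in the normal library, where Dppa5a, Tdgf1, Utf1 and Zfp42 were at 0 reads. Esrrb made 3.76 RPKM of the normal sum. It had 1694 reads in the tumour and 637 in the normal library, 2.54-fold higher (2.31 to 2.78), the smallest ratio of the 7. Of these 7 markers 6 had fewer than 20 reads in the normal library and likewise passed the read minimum through the tumour library. The part of pluripotent cell transcripts in the mitotic gene ratios was not tested.

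**Figure D1:**
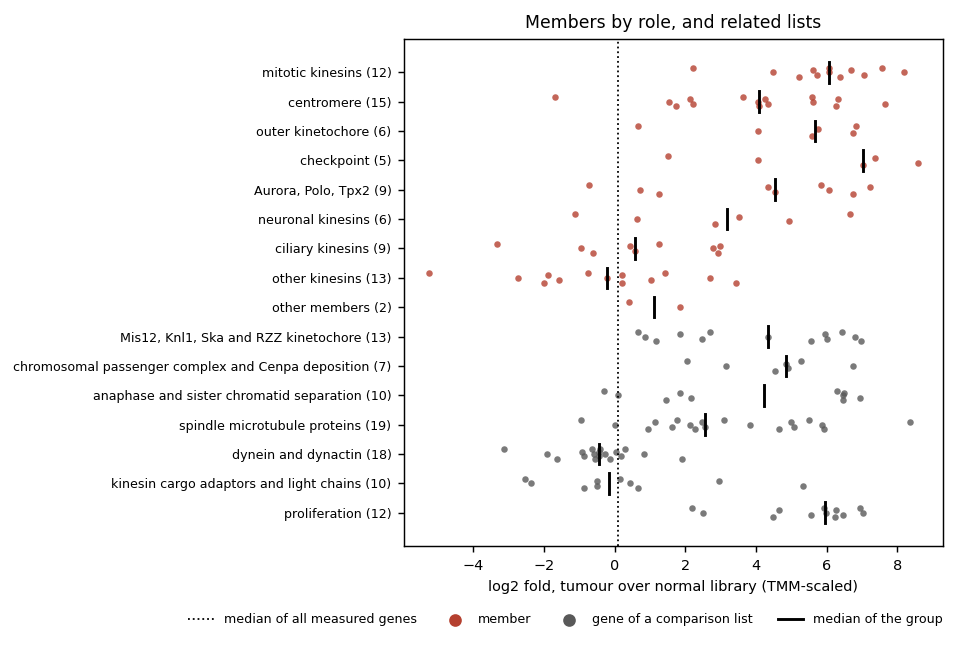
Log2 fold, tumour over normal library, of each gene (points) by role, with related gene lists in grey, the number of genes with a ratio in brackets, group medians as bars and the median of all measured symbols (0.08) as a dotted line; a gene with 0 reads in a library stands at a floor of 3 reads. The 5 mitotic groups at the top lie mostly right of 4, while the ciliary and other kinesins, dynein and the cargo adaptors lie on both sides of 0.

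All 12 mitotic kinesins were higher in the tumour library, by 4.67-fold to 293-fold, with levels of 6.14 to 47.4 RPKM in the tumour and 0.0357 to 4.03 RPKM in the normal library. Kif11 (mm10, chromosome 19, 37376403 to 37421859), the tetrameric motor that pushes spindle poles apart, had 7541 reads in the tumour and 87 in the normal library, 82.7-fold higher (67.0 to 103). Kif15 (chromosome 9, 122951081 to 123018733), which helps Kif11 to keep the spindle bipolar, had 3682 and 12 reads and was 293-fold higher (167 to 567). Both motors of pole separation were thus below 0.5 RPKM in the normal library and above 20 RPKM in the tumour library.

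Motors that act at chromosomes and kinetochores had the same direction. Kif2c (chromosome 4, 117159633 to 117182624), also known as MCAK, which takes microtubule ends apart at centromeres, had 2774 reads in the tumour and 14 in the normal library, 189-fold higher (112 to 346). Kif18a, which dampens chromosome movements at the metaphase plate, had 1517 and 65 reads, 22.3-fold higher (17.4 to 29.0). Its paralog Kif18b, which limits the growth of astral microtubules, had 1528 and 14 reads, 104-fold higher (61.9 to 191). The paralogs stood at nearly equal levels in the tumour library, 13.6 and 13.9 RPKM, and apart in the normal library, at 0.480 and 0.104 RPKM. The chromosome arm motors Kif22 and Kif4 had 2456 and 35 reads (66.9-fold higher, 48.0 to 96.3) and 2562 and 46 reads (53.1-fold higher, 39.7 to 72.8). Kif4 shares 15.1% of its exon bases with Pdzd11 on the other strand, which had 403 reads in the tumour and 1077 in the normal library.

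The midzone and cytokinesis motors were higher as well, with 1 member less so. Kif20a, which brings the chromosomal passenger complex to the midzone, had 4939 reads in the tumour and 70 in the normal library, 67.3-fold higher (53.2 to 86.5), and it shares 29.3% of its exon bases with Cdc23 on the other strand. Kif23, a subunit of centralspindlin, had 2581 and 50 reads, 49.2-fold higher (37.2 to 66.5). Kif14, which is needed to complete cytokinesis, had 1693 and 12 reads, 135-fold higher (76.9 to 261). Kif20b, a paralog of Kif20a, had 4414 and 901 reads and was 4.67-fold higher (4.35 to 5.03). Its 4.03 RPKM in the normal library stood above the 0.0357 to 0.487 RPKM of the other 11 mitotic kinesins there, and its transcripts share no 50-base word with those of another GENCODE gene.

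The minus-end motor Kifc1, which clusters spindle poles, had 1100 reads in the tumour and 28 in the normal library, 37.5-fold higher (25.8 to 56.7), and its near copy Kifc5b had 382 and 34 reads, 10.7-fold higher (7.54 to 15.7). Of the 50-base words in their transcripts, 39.7% of those of Kifc1 and 37.4% of those of Kifc5b occur in another gene, nearly all in each other. The labels used here do not say how reads that map to both were counted, so the division between these 2 genes is uncertain.

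Many promoters of the mitotic groups, though not all, hold letters that the choice by symbol did not use. The cell cycle homology element, which is bound by the MuvB complex in many mitotic promoters, often reads TTTGAA (more rarely, TTCGAA), and the CCAAT box is bound by NF-Y. In RefSeq windows from 250 bases before to 50 bases after the start (GRCm38.p6, the assembly of mm10), a start within 500 bases of the deposited model was found for 65 of the 79 genes and for 17199 symbols of the table. TTTGAA, on either strand, occurred in the windows of 9 of 10 mitotic kinesins (all but Kif18a), 21 of 42 genes of the 5 mitotic groups and 4 of 23 of the remaining genes, against 15.7% of all windows. By group, TTTGAA was in 4 of 15 centromere windows and 2 of 7 of the mitotic kinases with Tpx2. It was in 3 of 5 outer kinetochore and 3 of 5 checkpoint windows. With either form counted, 23 of the 42 and 5 of the 23 held the element, against 17.3%. Within 50 bases of the start TTTGAA occurred in 8 of the 10 mitotic kinesins, 19 of the 42 and 3 of the 23, against 3.90% of all windows. CCAAT occurred in 29 of the 42 and 9 of the 23, against 38.7% of all windows. Among the 23, it was in 5 of 7 ciliary kinesins, 4 of 10 other transport kinesins and none of 4 neuronal kinesins. The share in the ciliary kinesins, 71.4%, was thus near the 69.0% of the mitotic groups. The third set of letters searched, GCGGGAA for E2F, was found in 9 of the 42 and 1 of the 23, against 6.29% of all windows. It was in 8 of 15 centromere genes, among them Cenpb, which was lower in the tumour library, and none of the 10 mitotic kinesins. Kif18a, Cenpp, Cenpt, Nuf2 and Mad2l1, all called higher, held none of the letters searched, nor did Plk2 and Plk3, which were not called. These are matches of letters and not tested sites.

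Stretches from 150 bases before to 30 bases after the start are shown for the 3 genes with the largest ratio among genes of the mitotic groups with either form in the window, and for Kif12, the kinesin furthest in the other direction. Capitals mark matches to the letters just named, on either strand (TTCAAA and ATTGG are the reverse complements), and each stretch is read 5′ to 3′ along the gene's own strand. The windows are chr2:127831830-127832009 on the minus strand for Bub1, chr9:122950931-122951110 on the plus strand for Kif15, chr9:83834539-83834718 on the plus strand for Ttk and chr4:63172102-63172281 on the minus strand for Kif12.
Bub1: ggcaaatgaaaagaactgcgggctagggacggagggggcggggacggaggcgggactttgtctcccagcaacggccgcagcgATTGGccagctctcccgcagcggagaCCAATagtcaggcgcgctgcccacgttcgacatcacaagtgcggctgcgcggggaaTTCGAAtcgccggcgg
Kif15: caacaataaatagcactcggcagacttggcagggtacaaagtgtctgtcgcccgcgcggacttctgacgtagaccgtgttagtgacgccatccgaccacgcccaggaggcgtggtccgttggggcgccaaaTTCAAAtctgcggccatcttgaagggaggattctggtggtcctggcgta
Ttk: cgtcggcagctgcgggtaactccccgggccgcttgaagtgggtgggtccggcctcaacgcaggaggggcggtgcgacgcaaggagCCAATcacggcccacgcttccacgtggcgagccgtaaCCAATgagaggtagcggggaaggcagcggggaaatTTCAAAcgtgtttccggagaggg
Kif12: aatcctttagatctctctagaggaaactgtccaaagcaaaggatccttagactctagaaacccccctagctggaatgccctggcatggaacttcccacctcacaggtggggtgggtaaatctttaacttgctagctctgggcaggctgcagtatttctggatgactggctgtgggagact
In Bub1 the TTCGAA begins at base 15 after the start, in Ttk the TTTGAA, on the other strand, at base 8, and in Kif15 at base 19 before the start. Bub1 and Ttk hold a pair of CCAAT boxes each, at bases 68 and 42 and at bases 65 and 28 before the start, while Kif15 has none. The window of Kif12 holds none of the letters searched.

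At the centromere, 14 of 15 genes were higher and 1 was lower in the tumour library, and the size of the ratio varied widely between proteins of 1 complex. Cenpa (chromosome 5, 30666886 to 30674837), the histone variant that marks the centromere, had 1609 reads in the tumour and 20 in the normal library, 76.8-fold higher (49.5 to 126). Cenpb (chromosome 2, 131177289 to 131180012), which binds a motif in centromeric satellite repeats and derives from a transposase, had 2172 and 6730 reads and was 3.25-fold lower (3.09 to 3.41). At 61.2 RPKM, Cenpb was the most abundant of the 79 genes in the normal library, and at 24.0 RPKM it was the seventeenth in the tumour library.

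The constitutive network binds CENP-A nucleosomes and carries the outer kinetochore. Its subunits Cenph and Cenpi, which act together with Cenpk and Cenpm, had 631 and 3 reads (201-fold higher, 68.4 to 976) and 723 and 14 reads (49.3-fold, 29.2 to 90.6), tumour first in each pair. Cenpk had 277 reads in the tumour and 16 in the normal library (16.5-fold, 9.99 to 29.3), and Cenpm 253 and 5 reads (48.3-fold, 20.4 to 150). The intervals of Cenph and Cenpk do not overlap, and all 4 genes were at most 0.327 RPKM in the normal library. Cenpk shares 4.45% of its exon bases with Ppwd1 on the other strand, which had 1039 reads in the tumour and 358 in the normal library. The part of this overlap in the Cenpk ratio was not tested. Cenpw, a histone-fold partner of Cenpt, had 587 and 7 reads (80.0-fold, 38.6 to 200), while Cenpt itself had 762 and 58 reads (12.5-fold, 9.59 to 16.7). Between Cenpt and Cenpw, whose proteins pair in 1 histone-fold complex, the intervals also do not overlap.

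The CENP-A-binding subunit Cenpn had 720 reads in the tumour and 36 in the normal library, 19.1-fold higher (13.7 to 27.5), and its partner Cenpl 318 and 105 reads, 2.89-fold higher (2.31 to 3.64). Cenpc1, which encodes the scaffold CENP-C, had 1682 and 479 reads, 3.35-fold higher (3.02 to 3.72). In the subcomplex of Cenpo, Cenpp, Cenpq and Cenpu the reads were 656 and 142 (4.41-fold), 358 and 17 (20.1-fold), 642 and 131 (4.68-fold) and 445 and 25 (17.0-fold), in that order and with the tumour before the normal library. All 4 were higher in the tumour library. Each of these 4 genes shares exon bases with a gene on the other strand, and the shared part was largest in Cenpu, with 26.7% of its exon bases in Primpol, which had 475 reads in the tumour and 257 in the normal library. Cenpo shares 19% with Adcy3 (421 and 129 reads), Cenpp 12.3% with Ippk (745 and 644 reads) and Cenpq 3.65% with Mut (1358 and 12184 reads). The part of these overlaps in the ratios was not tested.

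Of 6 genes of the outer kinetochore and its corona 5 were higher, and Spc25 was not called. Cenpf and Cenpe, large coiled-coil proteins of the corona of which Cenpe is itself a kinesin, had 11089 reads in the tumour and 93 in the normal library (114-fold, 92.8 to 141) and 6062 and 106 reads (54.6-fold, 45 to 66.8). The Ndc80 complex is made of Ndc80, Nuf2, Spc24 and Spc25 in equal numbers. Ndc80 had 1341 reads in the tumour and 12 in the normal library, 107-fold higher (60.8 to 207), and Nuf2 1106 and 22 reads, 48.0-fold higher (31.5 to 76.8). Spc24 had 1228 and 70 reads, 16.7-fold higher (13.1 to 21.6).

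Spc25 (chromosome 2, 69193895 to 69206213) had 1093 reads in the tumour and 661 in the normal library, 1.58-fold (1.43 to 1.74), and came out at 2-fold or just above under 3 other scalings (plain CPM, with a log2 ratio of 1.22, header totals and RPKM plus 0.1). The 4 subunits thus lay within 13.9 to 27.5 RPKM in the tumour library, whereas in the normal library Spc25, at 12 RPKM, made 87.9% of the summed level of the complex, against 28.7% in the tumour. Spc25 shares no exon base with another GENCODE gene and no 50-base word with another transcript.

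**Figure D2:**
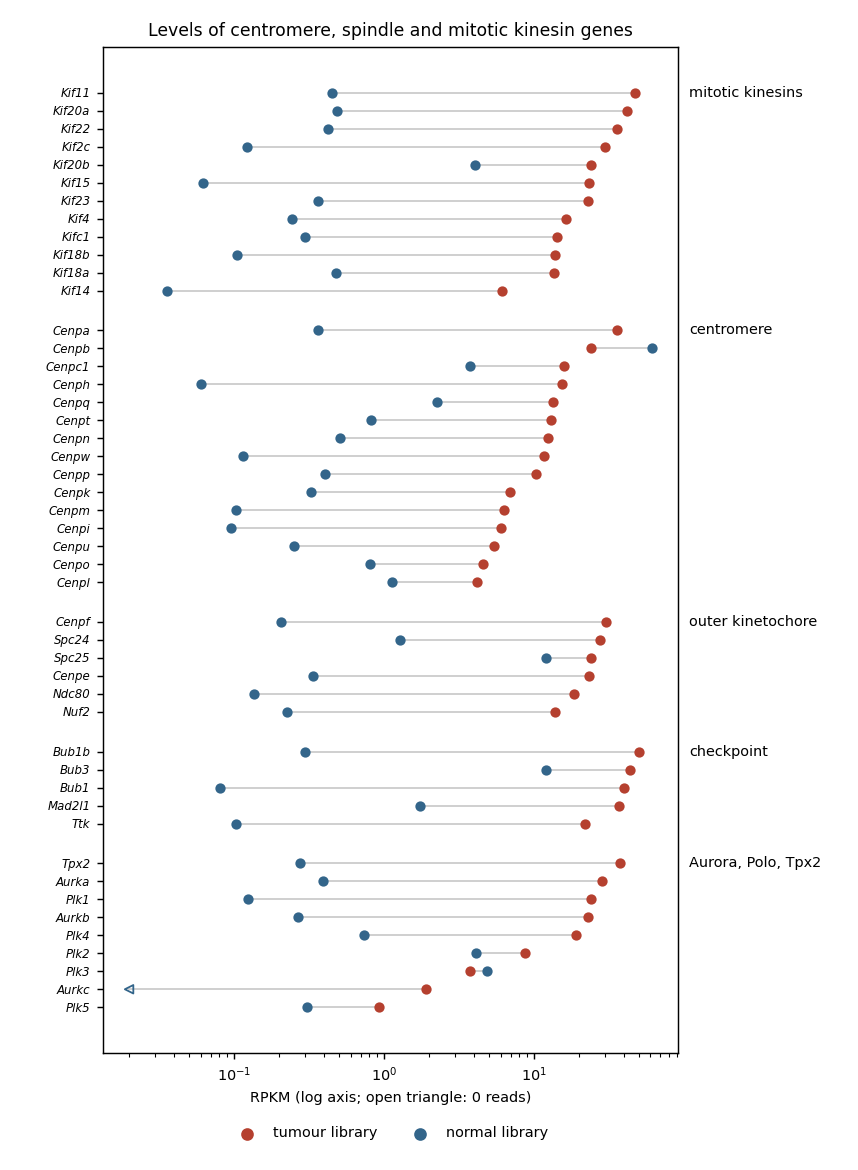
Level in RPKM (log axis) of the 47 genes of the mitotic role groups in the tumour library (red) and the normal library (blue), with a line joining the pair and an open triangle for 0 reads. Normal values lie mostly under 1 RPKM, with Cenpb, Bub3, Spc25, Plk3, Plk2, Kif20b, Cenpc1, Cenpq, Mad2l1, Spc24 and Cenpl above it, and Cenpb and Plk3 have the tumour point on the left.

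All 5 genes of the spindle checkpoint were higher in the tumour library. Bub1 (chromosome 2, 127800200 to 127831859), a kinase that marks the inner centromere, had 5687 reads in the tumour and 14 in the normal library, 388-fold higher (231 to 709), the largest ratio of the 79 genes and the seventy-second largest of all measured symbols. Bub1b, which encodes the inhibitor BubR1, had 6055 and 44 reads, 131-fold higher (97.7 to 181), and its 50.1 RPKM was the highest level of the 79 genes in the tumour library. Ttk, the kinase that starts the signal, had 2096 and 12 reads, 167-fold higher (95.2 to 323). Mad2l1, the protein that closes around Cdc20, had 2103 and 121 reads, 16.6-fold higher (13.8 to 20.1). Bub3, the shared partner of Bub1 and BubR1, had 2973 and 997 reads and was 2.84-fold higher (2.65 to 3.06). In the normal library Bub3 stood at 12.1 RPKM, against 0.0803 RPKM for Bub1 and 0.299 RPKM for Bub1b, and in the tumour library the 3 genes lay between 39.8 and 50.1 RPKM.

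Of the 9 genes of the Aurora and Polo-like kinases and Tpx2, 7 were higher, and Plk2 and Plk3 were not called. Aurka, the Aurora kinase of spindle poles, had 1850 reads in the tumour and 31 in the normal library, 56.9-fold higher (40.0 to 84), and Aurkb, that of the passenger complex, had 1477 and 21 reads, 67.1-fold higher (43.7 to 109). Tpx2, which activates Aurka on spindle microtubules, had 5198 and 46 reads, 108-fold higher (80.7 to 147). The germ line form Aurkc had 73 reads in the tumour and 0 in the normal library. Set against a floor of 3 reads it was 23.2-fold higher, and the counting interval of the ratio begins at 18.4. Aurkc shares 54.8% of its 50-base words with other genes, and of 8 germ cell markers 6 were higher, with summed levels of 37.0 RPKM in the tumour and 0.232 RPKM in the normal library, while the late spermatid markers Prm1 and Tnp1 had 0 and 2 reads in the tumour. All 6 higher germ cell markers had fewer than 20 reads in the normal library, so they too passed the read minimum through the tumour library. The part of germ cell transcripts in the Aurkc count was not tested.

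Plk1, the Polo-like kinase of mitotic entry and kinetochores, had 1739 reads in the tumour and 11 in the normal library, 151-fold higher (84.1 to 303), and Plk4, the kinase of centriole duplication, 2240 and 105 reads, 20.4-fold higher (16.7 to 25.0). Plk2 and Plk3, which respond to stress and growth signals, had 808 and 466 reads (1.65-fold, 1.47 to 1.86, and above 2-fold with plain CPM, at a log2 ratio of 1.28) and 293 and 461 reads (1.65-fold lower, 1.42 to 1.92) and were called neither. Plk5, which lacks a complete kinase domain in human, had 65 and 26 reads, 2.39-fold higher (1.49 to 3.92), at 0.934 RPKM in the tumour. Plk1 made 42.3% of the summed Polo-like level (RPKM) in the tumour and 1.22% in the normal library, and Plk4 33.9% and 7.25%. Plk2 made 15.5% in the tumour and 40.7% in the normal library, and Plk3 6.65% and 47.8%.

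Kinesins known from neurons were higher for 4 of 6 members. Kif1a (chromosome 1, 93015455 to 93082480), which carries synaptic vesicle precursors, had 2554 reads in the tumour and 24 in the normal library, 102-fold higher (68.1 to 159). Kif5c and Kif5a, the neuron-enriched heavy chains of conventional kinesin, had 2260 and 70 reads (30.8-fold, 24.3 to 39.7) and 660 and 88 reads (7.16-fold, 5.72 to 9.04). Kif21b, a motor of dendrites and lymphocytes, had 833 and 69 reads, 11.5-fold higher (9.0 to 14.9). Its paralog Kif21a had 2711 and 5602 reads and was 2.17-fold lower (2.07 to 2.27), a call that ended under plain CPM (log2 ratio -0.56), header totals (-0.76) and RPKM. Kif3c had 492 and 301 reads and was not called (1.56-fold, 1.35 to 1.81, but above 2-fold with plain CPM), and it shares 35.3% of its exon bases with an antisense gene.

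All 11 neuron markers were higher in the tumour library, with summed levels of 47.0 RPKM in the tumour and 1.23 RPKM in the normal library, and Tubb3, Elavl4, Gap43 and Snap25 were at 0 reads in the normal. Of these 11 markers 9 had fewer than 20 reads in the normal library. They passed the read minimum through the tumour library, which by itself makes a higher call likely. The highest level of the 11 in the tumour was 18.2 RPKM for Tubb3, and Rbfox3 and Snap25, which mark mature neurons, had 20 and 30 reads there. Of 7 immune cell markers 3 were higher and 3 were under the read minimum, with summed levels of 135 RPKM in the tumour and 12.5 RPKM in the normal library. The myeloid gene Lyz2 made 113 RPKM of the tumour sum. Those under the minimum were the lymphocyte markers Cd3e (7 reads in the tumour and 3 in the normal library), Cd79a (3 and 1) and Ms4a1 (1 and 6). The part of neuronal or immune transcripts in the ratios of Kif1a, Kif5a, Kif5c and Kif21b was not tested.

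Of 9 kinesins of the cilium 3 were higher, 1 lower and 4 neither, and 1 had too few reads. Kif3a and Kif3b, the motor pair that drives transport into cilia, had 955 reads in the tumour and 614 in the normal library (1.48-fold, 1.34 to 1.64) and 1107 and 1605 reads (1.52-fold lower, 1.41 to 1.64), and neither was called, although Kif3a passed 2-fold with plain CPM (log2 ratio 1.13). Kif7, which regulates Hedgehog signalling at the ciliary tip, had 443 and 53 reads, 7.97-fold higher (5.99 to 10.8), and Kif24, which restrains cilium assembly at the mother centriole, had 465 and 65 reads, 6.83-fold higher (5.26 to 8.99). Kif9, a motor of motile cilia, had 17 and 162 reads, 9.99-fold lower (6.05 to 17.6). Kif19a, which trims motile cilia, had 32 and 4 reads, 7.63-fold higher (2.71 to 29.7).

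Kif27 (62 and 115 reads) and Kif6 (24 and 17 reads) were called neither, and Kif17 had 5 and 2 reads, too few to call. Of 8 markers of motile ciliated cells 4 were higher and 2 lower, with summed levels of 7.15 RPKM in the tumour and 3.37 RPKM in the normal library. Foxj1, the master factor of motile cilia, was among the 4 higher, with 158 reads in the tumour and 8 in the normal library. The 2 lower markers, Dnah5 (98 and 238 reads) and Cfap126 (14 and 67 reads), had the direction of Kif9. The markers thus lay on both sides, and Kif9 and Foxj1 differed in opposite directions.

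Of the 13 measured genes among the remaining transport and microtubule kinesins, 4 were higher, 5 lower and 4 neither. Among all measured symbols 31.2% were higher and 28.0% lower, so both directions are common in the table too. The 5 lower genes, of 8 among the 79, come first. Kif12 (chromosome 4, 63165637 to 63172131), a kidney-enriched kinesin known in mice as a modifier of cystic kidney disease, had 125 reads in the tumour and 4613 in the normal library, 38.7-fold lower (32.4 to 46.6). It was second in level among the 79 genes in the normal library, at 51.2 RPKM, and at 1.69 RPKM it was the sixty-eighth in the tumour library. Kifc3, a minus-end motor of epithelial apical transport and junctions, had 372 and 2358 reads, 6.64-fold lower (5.95 to 7.43). Kif16b, which moves early endosomes, had 1055 and 4067 reads, 4.04-fold lower (3.78 to 4.33), and Kif1c, which carries vesicles and mRNA, 2031 and 5831 reads, 3.01-fold lower (2.86 to 3.17). Kifc2 had 79 and 278 reads, 3.69-fold lower (2.86 to 4.80). The nephron markers given above were lower beside these genes, and the part of fewer epithelial transcripts in these ratios was not tested.

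Kif5b, the broadly expressed conventional kinesin, differed little, with 8715 reads in the tumour and 7230 in the normal library (1.15-fold, 1.11 to 1.19). The endosome and vesicle motors Kif13a (1651 and 1354 reads) and Kif13b (1788 and 1975 reads) were not called, nor was Kif1b (4038 and 6555 reads, 1.70-fold lower). Kif2a, which takes microtubule ends apart at spindle poles and in neurites, had 1870 and 274 reads, 6.51-fold higher (5.73 to 7.42). Kif26a and Kif26b, kinesin-like proteins without motor activity that act in development, had 372 reads in the tumour and 132 in the normal library (2.69-fold higher, 2.20 to 3.30) and 232 and 109 reads (2.03-fold higher, 1.61 to 2.57). Kif26b is needed for kidney formation in the mouse, and its interval reaches below 2-fold. The testis motor Kif2b had 1 read in the tumour and 0 in the normal library, and the pseudogene Kif4-ps 2 and 0 reads.

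Of the members outside these roles, Cenpj, a centriole growth factor, had 661 reads in the tumour and 176 in the normal library, 3.58-fold higher (3.03 to 4.26), and Cenpv had 440 and 319 reads and was called neither.

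**Figure D3:**
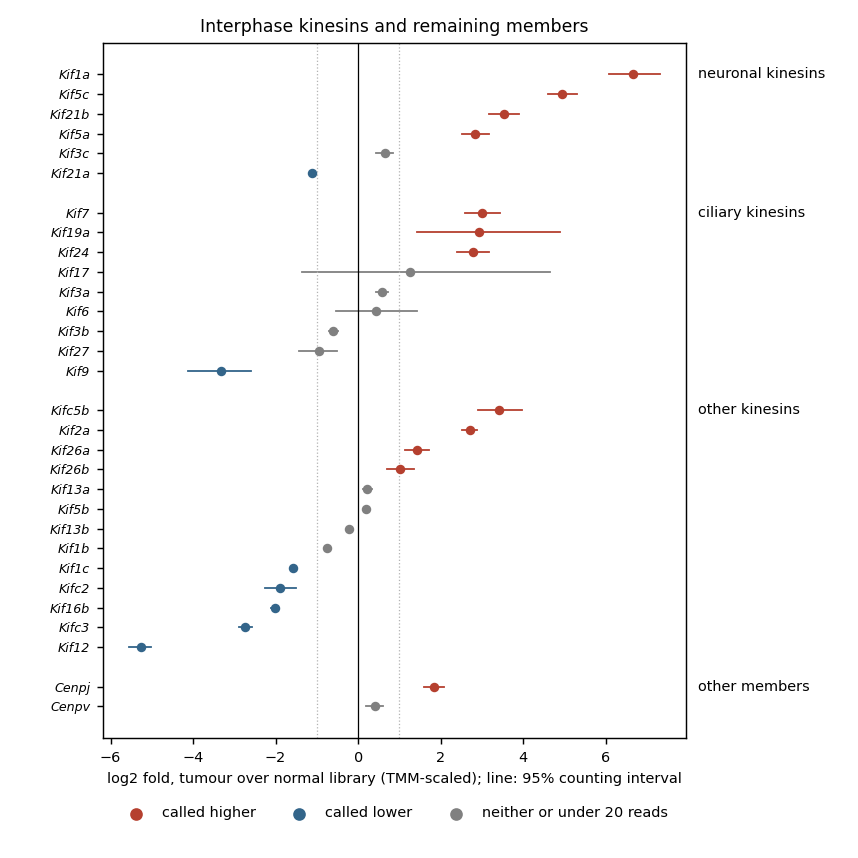
Log2 fold, tumour over normal library, with 95% counting intervals, for the 30 genes with a ratio outside the mitotic role groups, coloured by call; dotted lines mark 2-fold. Points run from Kif12 at -5.27 to Kif1a at 6.67, and the neuronal, ciliary and other kinesins each have members on both sides of 0.

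In the Kif1, Kif2, Kif20, Kifc and Polo-like families and the Ndc80 complex the gene with the highest level differed between the libraries. In the Kif3, Kif13, Kif21 and Kif26 families the same gene led in both, namely Kif3b, Kif13b, Kif21a and Kif26a. In the Kif5 family Kif5b led in both, but its share differed. In the Kif18 pair Kif18a made 82.1% in the normal library, while in the tumour Kif18a at 49.6% and Kif18b at 50.4% were nearly equal. These shares use the deposited RPKM, which is per length, and do not depend on the scaling of the libraries. Kif5b made 76.9% of the Kif5 level in the tumour and 98% in the normal library, and Kif5c 17.6% and 0.836%. In the Kif1 family Kif1b led in the tumour with 39.1%, against 42.5% in the normal library, while Kif1c made 29.8% in the tumour and 57.3% in the normal library, and Kif1a 31.1% and 0.196%. In the Kif2 family Kif2c led in the tumour library with 66.0%, against 6.28% in the normal, where Kif2a made 93.7%. Likewise Kif20a made 63.5% of the Kif20 level in the tumour and 10.8% in the normal library, where Kif20b made 89.2%.

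Among the Kifc genes Kifc1 made 62.5% of the summed level in the tumour and 1.44% in the normal library, and Kifc3 15.0% and 86.4%. The sum of the 4 Kifc genes was nearly equal, 23.0 RPKM in the tumour and 20.8 RPKM in the normal library, so the difference lay in which gene supplied it. In the Aurora pair Aurka made 53.4% and 59.4% and Aurkb 43.0% and 40.6%, tumour first, while the family sum was 53.1 RPKM in the tumour and 0.657 RPKM in the normal library. The normal shares rest on 31 reads of Aurka and 21 of Aurkb, so a difference in proportions could be missed.

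**Figure D4:**
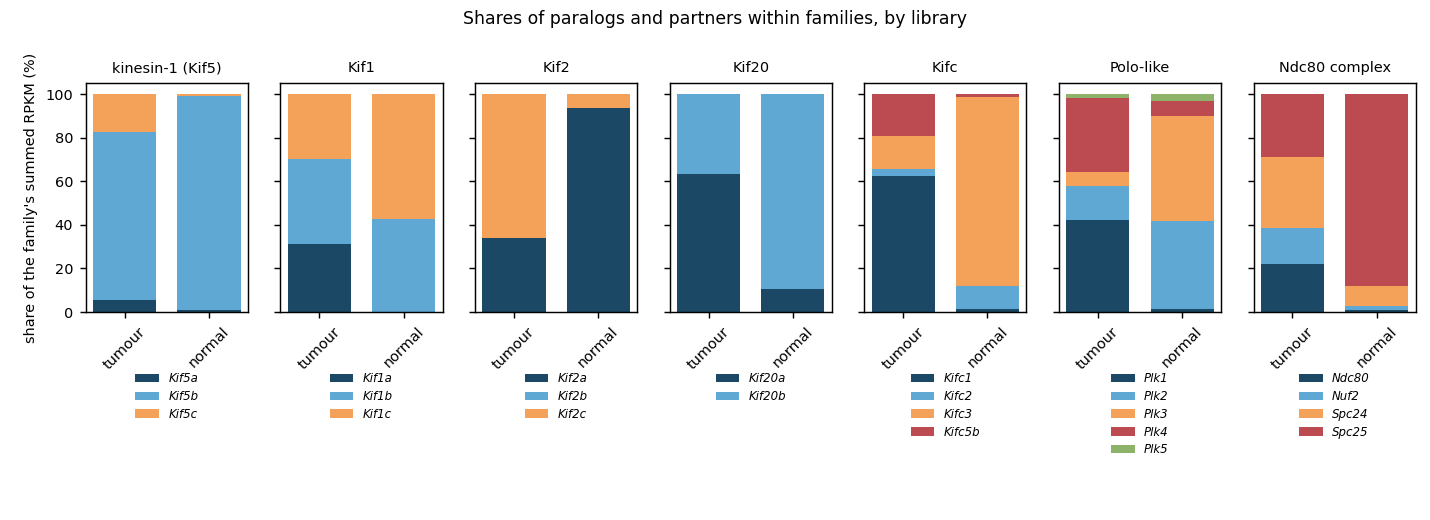
Share (%) of each gene in the summed RPKM of its family or complex, tumour bar left and normal bar right. Kif2c, Kif20a, Kifc1 and Plk1 are the largest parts in the tumour library, and Kif2a, Kif20b, Kifc3 and Plk3 in the normal library, where Spc25 fills most of the Ndc80 complex.

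Partners of these genes were read from lists that hold none of the 79. In the list of the Mis12, Knl1, Ska and RZZ kinetochore proteins 11 of 13 were higher and none lower, with a median log2 ratio of 4.35, from Nsl1 at 126-fold (57.8 to 345) down to Zw10 at 1.58-fold (1.44 to 1.74), which together with Zwint (1.82-fold) was not called. All 7 genes of the passenger complex and CENP-A deposition were higher, with a median of 4.84. Hjurp, the CENP-A chaperone, had 4411 reads in the tumour and 1028 in the normal library, 4.09-fold higher (3.82 to 4.39), the smallest ratio of that list. Of 10 genes of anaphase and chromatid separation 8 were higher, with a median of 4.24. Sgol1, the shugoshin that guards cohesin, led with 123-fold (68.5 to 247), and Pttg1, the separase inhibitor securin, had 944 reads in the tumour and 841 in the normal library and was not called, nor was Mad2l2 (201 and 237 reads).

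Of 19 spindle microtubule proteins 16 were higher and 3 neither, with a median of 2.55. Dlgap5, which bundles kinetochore fibres, had 3132 reads in the tumour and 9 in the normal library (332-fold, 175 to 727), and Kiz, a pole protein, was at 1.94-fold lower (1.75 to 2.16), with Numa1 and Haus2 the other genes not called. All 12 general proliferation genes were higher, with a median of 5.96, close to the 6.07 of the mitotic kinesins, and ran from Tk1 at 4.52-fold (3.83 to 5.37) to Top2a at 131-fold (115 to 149).

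Dynein and dynactin, the minus-end transport motor and its cofactor, held 1 higher, 3 lower and 14 neither of 18 genes, with a median of -0.44. Dync1h1, the heavy chain, had 24200 reads in the tumour and 25551 in the normal library (1.11-fold lower, 1.09 to 1.13). The light chain Dynll1 was the higher gene, at 3.72-fold (3.47 to 4.0), and Dynlt3 (8.86-fold, 7.98 to 9.84), Dync2li1 (3.80-fold) and Dynll2 (3.10-fold) were the lower ones. Of 10 kinesin light chains and cargo adaptors 2 were higher, Jakmip1 (40.7-fold, 13.6 to 200) and Klc3 (7.73-fold), and 2 lower, Trak2 (5.81-fold, 5.48 to 6.16) and Klc4 (5.15-fold), with a median of -0.17.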

How the data were processed

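For 32958 UCSC gene models the authors deposited exon read counts in whole numbers, and RPKM values scaled by model length and header total. Tools in the submitters' processing notes are HOMER, bcl2fastq and STAR 2.5.0c, with build mm10. The strand setting and the treatment of multi-mapped reads are not given in the sources used here. For each symbol the model with most reads was used. Libraries were scaled by TMM (edgeR 4.0.16, R 4.3.3; factors 1.21 for the tumour and 0.824 for the normal library), and ratios carry exact conditional Clopper-Pearson 95% intervals, which take PCR copies as molecules. A count of 0 was set to 3 reads in a ratio, and no ratio was given when both counts were at or under that. Gene and marker lists, promoter letters and the rule that all members are named were chosen with earlier results of these data known, and the 500-base limit on promoter starts after seeing the windows. Exons and transcripts for overlaps came from GENCODE M21, and promoters from RefSeq, which holds 67 of the 79 genes. Alternatives used plain CPM, header totals, DESeq2 1.42.0 size factors, RPKM plus 0.1 or 1, other read minimums and floors, summed models and a 4-fold limit. The values of 1 gene of the related lists are not reported here. Python 3.11.15, pandas 2.3.3 and scipy 1.17.1 did the rest.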

Additional observations from a re-analysis of the deposited data

How the results depend on the processing

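Of the 77 genes with a ratio, 66 kept their call under the other scalings, read minimums and floors that gave them one. The count of higher genes among the 79 was 51 to 59, and 48 at a 4-fold limit, which ends calls between 2-fold and 4-fold such as those of Bub3 and Cenpb. The count of lower genes, 8 in the main setting, was 5 with RPKM plus 1 and 4 at a 4-fold limit, and the median log2 ratio of the 79 was 2.15 with RPKM plus 1, which shrinks ratios of low genes by construction. Over the table, a 4-fold limit left 3023 higher and 2573 lower calls, and RPKM plus 1 left 2758 lower. The lower call of Kif21a ended with plain CPM (-0.56), header totals (-0.76) and both RPKM settings, and those of Kif9 and Kifc2 and the higher calls of Kif19a, Kif26a, Kif26b and Plk5 ended with RPKM plus 1. Plk2 and Spc25 were called higher with plain CPM, header totals and RPKM plus 0.1, and Kif3a and Kif3c with plain CPM. No called gene reversed, but Kif13b, not called, had a log2 ratio of -0.21 in the main setting and 0.35 with plain CPM, and was above 0 with header totals and both RPKM settings, as was the median of the other transport kinesins. With 3 to 11 reads in the normal library, the ratios of Cenph, Cenpm, Cenpw and Plk1 span several-fold in counting error alone. No paired analysis was possible because each group has 1 library.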
